A study of Homo sapiens with 22 samples.

Results

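RNA of 6 genes of the adherens junction, CTNNB1, JUP, CTNNA1, CTNND1, CDH1 and CDH2, is described here across all groups of an RNA-seq study of H1299 cells. They were chosen by name, as partners and relatives of CTNNB1, out of 37908 genes in the count table, and all 6 were found there. The question was whether JUP or another of these genes responds when CTNNB1 is knocked down.

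Adherens junctions join neighbouring cells through classical cadherins, single-pass membrane proteins that bind the same kind of cadherin on the next cell. Inside the cell the cadherin tail carries catenins: β-catenin (gene CTNNB1) or its close relative plakoglobin (JUP) binds the tail, α-catenin (CTNNA1) links that complex to actin, and p120-catenin (CTNND1) binds nearer the membrane and keeps the cadherin at the cell surface. β-catenin has another role as a coactivator of WNT target genes, while plakoglobin is also a core part of desmosomes. E-cadherin (CDH1) is typical of epithelial cells and N-cadherin (CDH2) of mesenchymal ones, and a tumour cell line commonly holds far more of one than of the other.

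H1299 cells come from a human lung carcinoma of the non-small cell type, and all cultures held an shRNA against BRCA2 that doxycycline (DOX) switches on. BRCA2-proficient cells received no DOX, and BRCA2-deficient cells received 2 µg/mL of DOX over 3 days; no DOX-treated culture without the shRNA was among the groups, so DOX and BRCA2 depletion cannot be told apart. Each kind was transfected with AllStars control siRNA or with siβ-catenin, which was 1 siRNA sequence, so an effect of that sequence on other RNAs cannot be told apart from an effect of CTNNB1 loss. Each of these was given vehicle (DMSO, per the study's legends) or, for 24 h, LY2090314 at 250 nM, which blocks the kinase GSK3 (GSK3i) and lets β-catenin protein accumulate. There were 22 libraries in 8 groups. The BRCA2-proficient untreated and BRCA2-proficient siβ-catenin groups held 2 libraries each, numbered 2 and 3, and the other 6 groups held 3. Here untreated means control siRNA without GSK3i. Where 1 library of a group of 2 is left out, the remaining one stands for its group, and its spread is taken to be that of the other libraries in the fit. The study's methods speak of independent experiments, and the labels give each library only a number, so p-values measure the spread between these libraries. The whole series rests on 1 cell line. With 2 or 3 libraries per group, groups can also lie fully apart without a change. The share of all genes that lie apart in this way is not given here.

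The counts of a library summed to between 18938266 and 29280122. Levels are given as normalised read counts, which are counts divided by DESeq2 size factors, and as normalised counts per kb of the canonical transcript where genes are compared with each other. BRCA2 RNA was 71.71 to 225.7 normalised counts in the 12 BRCA2-deficient libraries and 513.9 to 1113 in the 10 BRCA2-proficient ones. AXIN2, a WNT target that feeds back on β-catenin, reached 1026 to 1746 where GSK3i was given with control siRNA (6 libraries), against 59.76 to 227.3 in all others. The line expressed the simple epithelial keratins KRT8 and KRT18 (medians of 3917 and 7454 normalised counts) beside the mesenchymal genes VIM (22660), FN1 (2774) and ZEB1 (1072). SPARC, another mesenchymal marker, was lower, with a median of 188.8 (46.63 to 618.2), and CDH11 was not found in the count table. Of the other epithelial markers looked for, CLDN4 had a median of 115.4 and ESRP1 of 24.03, and KRT19, EPCAM and CLDN7 had medians of at most 11.08. The lung lineage markers NAPSA, SFTPB and SFTPC were at most 9.233 in any library and NKX2-1 was 19.86 to 108.6. The blood markers PTPRC and LYZ and the endothelial marker CDH5 stayed under 5 normalised counts, and VWF reached 13.59.

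Of the libraries, 2 stood against their labels in the response to GSK3i. A score was formed from 168 genes raised and 407 lowered by GSK3i in the BRCA2-deficient siβ-catenin libraries (called and beyond 1 on the log2 scale, with a mean of at least 100 normalised counts; the 6 genes were taken out, of which JUP met these criteria), as the mean log2 level of the raised genes less that of the lowered ones. It was 2.09 to 2.58 in 11 libraries labelled with GSK3i and -0.67 to 0.04 in 8 labelled without it. Among these, the BRCA2-deficient siβ-catenin libraries with and without GSK3i separate by construction, since the genes were chosen on them. In the rest of these libraries the score was 2.32 to 2.58 with GSK3i and -0.37 to 0.04 without it. The library labelled BRCA2-proficient siβ-catenin replicate 2, which should have had no GSK3i, scored 2.35, and the library labelled BRCA2-proficient GSK3i and siβ-catenin replicate 2 scored -0.05. BRCA2-proficient siβ-catenin replicate 3 lay between, at 0.75. No library was moved to another group. The mean changes of the members are given with and without the 2 libraries, and list genes where the call then ended. Without them the BRCA2-proficient siβ-catenin group is 1 library. The BRCA2-deficient groups, with 3 libraries each, do not involve them. The 2 libraries were picked after the data were seen, by a score of genes that respond to GSK3i, as JUP does. Leaving them out therefore also narrows the spread of JUP, and those fits are not independent tests of it.

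**Figure D1:**
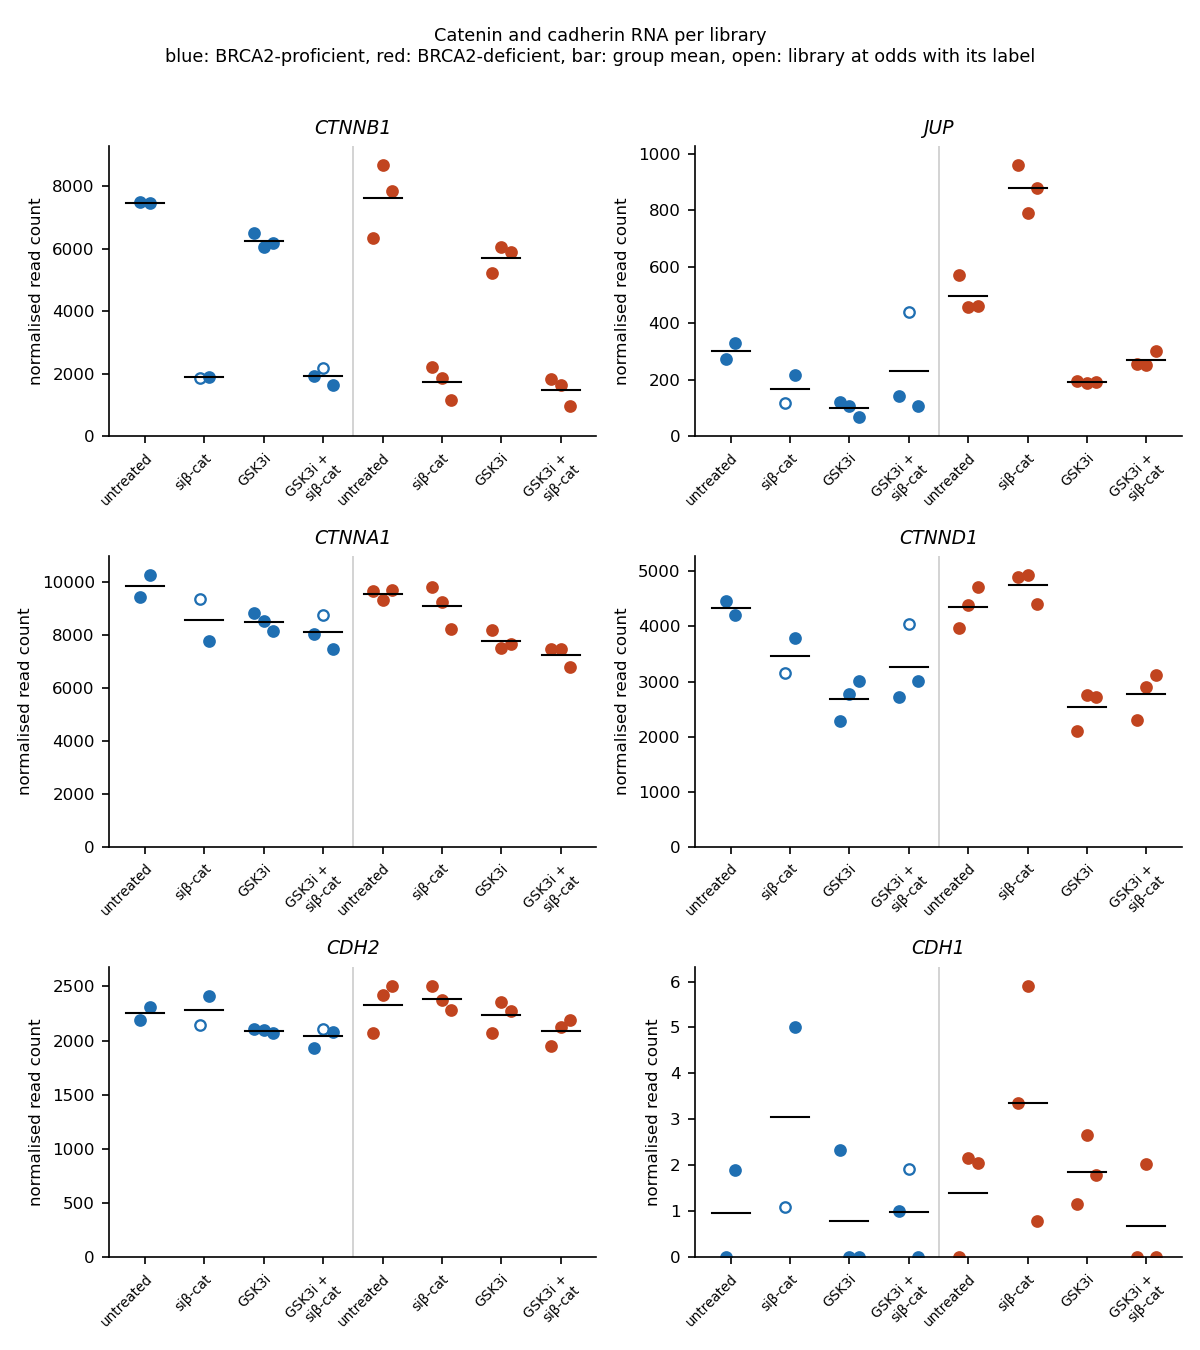
Normalised read counts (vertical axes, linear, from 0) of the 6 genes in every library of the 8 groups (horizontal axis), with BRCA2-proficient libraries in blue, BRCA2-deficient ones in red, the group mean as a bar and the 2 libraries at odds with their labels as open points. CTNNB1 falls in every siβ-catenin group, JUP peaks in BRCA2-deficient siβ-catenin cells (791.0 to 960.1), and CDH1 never passes 5.903.

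The 6 genes differed widely in level. Per kb, CTNNA1 was the most abundant, with a mean of 2270 normalised counts per kb over the 22 libraries, above 95.2% of the 17547 genes ranked. CTNNB1 followed at 1150 per kb, then CDH2 at 550 and CTNND1 at 522, whose ranges over libraries overlap. JUP stood at 96.3 per kb, above 45.4% of genes, and CDH1 at 0.332. The spread over all libraries had another order: the highest library exceeded the lowest 14.4-fold for JUP, 8.86-fold for CTNNB1, 2.34-fold for CTNND1, 1.51-fold for CTNNA1 and 1.3-fold for CDH2. JUP, the scarcest of the 5 measurable genes, was also the one that varied most between groups. A level per kb assumes that reads come from the canonical transcript.

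CTNNB1 (ENSG00000168036, GRCh37 chromosome 3, 41236232 to 41301587, plus strand) is the target of the siRNA. In BRCA2-proficient cells it was 7487 and 7451 normalised counts in the untreated libraries and 1873 and 1892 with siβ-catenin. Under GSK3i the BRCA2-proficient libraries had 6519, 6068 and 6181 with control siRNA and 1911, 2188 and 1643 with siβ-catenin. In BRCA2-deficient cells the values were 6344, 8681 and 7859 untreated, 2220, 1875 and 1143 with siβ-catenin, 5211, 6041 and 5892 with GSK3i, and 1823, 1648 and 979.5 with both. The highest library with siβ-catenin, at 2220, lay below the lowest without it, at 5211, so the siRNA groups never overlapped, and the 2 libraries that stood apart in their GSK3i score carried CTNNB1 levels like those of their siRNA labels.

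In the DESeq2 fit over all 22 libraries, the log2 change of CTNNB1 with siβ-catenin was -1.94 ± 0.12 as the mean of the 4 settings, to 0.26 of its level (adjusted p = 2.93e-58; ± values of log2 changes are standard errors). A gene is called here when its Benjamini-Hochberg adjusted p over all genes tested is below 0.05 and its log2 change is beyond 0.5. Of 18409 genes, 4.65% were called in this contrast, 3.43% higher and 1.22% lower, and of the 5 members tested CTNNB1 alone was. The changes in the single settings were -2.00 ± 0.16 and -1.68 ± 0.15 in BRCA2-proficient cells without and under GSK3i, and -2.12 ± 0.23 and -1.96 ± 0.24 in BRCA2-deficient cells. None of the 4 interactions of siβ-catenin with GSK3i or BRCA2 status was called for CTNNB1 (adjusted p from 0.648 to 1.0). The BRCA2-deficient comparison without GSK3i missed the threshold in edgeR's quasi-likelihood test (adjusted p = 0.0511 for a log2 change of -2.12), a test that called 0 of 17324 genes there. With GSK3i the mean log2 change of CTNNB1 RNA was -0.22 ± 0.12 (95% interval -0.45 to 0.01, adjusted p = 0.107), and BRCA2 status gave -0.14 ± 0.12 (adjusted p = 0.334). The mean changes of CTNNB1 without the 2 libraries were -1.97 with siβ-catenin, -0.25 with GSK3i and -0.12 with BRCA2 status. Without BRCA2-deficient untreated replicate 1, the fall with GSK3i in BRCA2-deficient control cells, -0.42 ± 0.17 (adjusted p = 0.0534), became a call at -0.54 (adjusted p = 0.00885).

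JUP (ENSG00000173801, GRCh37 chromosome 17, 39910856 to 39943183, minus strand) encodes plakoglobin, which can take the place of β-catenin on the cadherin tail. No gene overlaps it in the annotation used. The RefSeq promoter table has JUP windows before 2 transcript starts, and the 250 bases before each were searched on both strands for 2 motifs. One was CTTTGA, the core that the β-catenin partners TCF and LEF bind. The other was CACCTG, the E-box that the CDH1 repressors SNAI1 and ZEB1 bind, which reads CAGGTG from the opposite strand. The TCF/LEF core was in neither window, against 11.2% of 35116 windows of that length. The E-box letters stood in the window before the downstream start, in both orientations, 54 and 43 bases before it, in a window of which 233 of the 250 bases are annotated as exon of JUP transcripts, and 17.5% of all windows hold the motif. The 30 bases around the pair are shown because JUP is the gene whose level the results turn on (RefSeq, table build GRCh38.p14, matched here to GRCh37 chr17:39942260-39942289, minus strand, with the motif in capitals):

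JUP, downstream start: ctggcccCACCTGccgagCAGGTGagcgca

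Such a match describes the letters of the window and does not show binding. For CTNNB1 the single window held neither motif. The windows of CTNNA1 and CDH2 were not searched, and for CTNND1 and CDH1 no promoter is shown, as the promoter table holds none.

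The clearest response of JUP to CTNNB1 knockdown was in BRCA2-deficient cells without GSK3i. There JUP was 568.9, 458.8 and 461.6 normalised counts untreated and 960.1, 791.0 and 879.6 with siβ-catenin. Every siβ-catenin library lay above every untreated one, and JUP rose 1.77-fold (log2 change 0.83 ± 0.17, 95% interval 0.50 to 1.15, adjusted p = 0.000282, DESeq2). Of 17324 genes, 2.03% were called in this comparison, and of the 5 members CTNNB1 and JUP were. The rise kept its call without each of the 6 libraries in turn (0.76 to 0.93, adjusted p up to 0.0496). It missed the threshold in edgeR's quasi-likelihood test (0.83, adjusted p = 0.0989), and in a single model of all groups (0.82 ± 0.34, adjusted p = 0.216), whose estimate of the spread includes the 2 libraries at odds with their labels. In the same model without them it was 0.82 ± 0.16 (adjusted p = 0.000118).

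Under GSK3i in BRCA2-deficient cells JUP was 194.9, 189.1 and 190.8 normalised counts with control siRNA and 256.4, 250.3 and 302.8 with siβ-catenin. The groups again did not overlap, but the log2 change of 0.49 ± 0.18 (95% interval 0.14 to 0.84, adjusted p = 0.0769) met neither criterion, in a comparison where 5.52% of 17025 genes were called. Over the BRCA2-deficient libraries alone, the mean of both settings was 0.66 ± 0.11 (adjusted p = 7.45e-08). In the model of all 22 libraries, a difference in the siβ-catenin response with and without GSK3i was not detected in these cells (interaction -0.33 ± 0.49, 95% interval -1.29 to 0.64, adjusted p = 1.0; 0.282% of 18409 genes called), and without the 2 libraries it was -0.32 ± 0.24 (adjusted p = 0.909).

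In BRCA2-proficient cells the JUP values with siβ-catenin went with the GSK3i score of the library more than with its GSK3i label. Without GSK3i, JUP was 273.1 and 328.4 normalised counts untreated, 217.3 in siβ-catenin replicate 3, and 116.9 in the library labelled siβ-catenin replicate 2. Under GSK3i it was 120.0, 108.1 and 66.46 with control siRNA, 141.3 and 108.3 in replicates 1 and 3 with siβ-catenin, and 439.4 in the library labelled replicate 2. That last value was the highest of all BRCA2-proficient libraries, and 116.9 lay within the range of the BRCA2-proficient GSK3i libraries and those 2 replicates.

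The fits on these BRCA2-proficient groups gave opposite signs and no call. Without GSK3i the log2 change of JUP with siβ-catenin was -0.86 ± 0.35 (adjusted p = 0.162; 2.97% of 17654 genes called), and under GSK3i it was 1.26 ± 0.47 (adjusted p = 0.0855; 5.1% of 16393 genes called). In the model of all groups without the 2 libraries they were -0.47 ± 0.26 (adjusted p = 0.464) and 0.34 ± 0.22 (adjusted p = 0.488). Single libraries decided these calls. The first became a call without siβ-catenin replicate 3 (-1.37, adjusted p = 0.00293), a fit of 2 libraries against the 1 at odds with its label, and the second without replicate 1 (1.51, adjusted p = 0.0492) or replicate 3 (1.60, adjusted p = 0.0103) of the GSK3i and siβ-catenin group. Without the library labelled replicate 2 of that group, the second change was 0.36 (adjusted p = 0.626), and without the library labelled siβ-catenin replicate 2 the first was -0.48 (adjusted p = 0.581).

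As the mean of all 4 settings, JUP changed with siβ-catenin by 0.42 ± 0.19 (adjusted p = 0.127), which is no call. Without the 2 libraries it was 0.30 ± 0.10 (adjusted p = 0.0366), past the p threshold and below the size criterion, and it became a call without BRCA2-proficient GSK3i and siβ-catenin replicate 3 (0.51 ± 0.16, adjusted p = 0.0231). The difference between BRCA2 backgrounds in the JUP response without GSK3i was 1.67 ± 0.55 (adjusted p = 0.110; 0.641% of genes called). Without the 2 libraries it was 1.29, with 1 library left in the BRCA2-proficient siβ-catenin group, the one with the intermediate score. Without BRCA2-proficient siβ-catenin replicate 3 it was 2.19, with only the library at odds with its label left in that group. It passed the threshold without replicate 2 or replicate 3 of the BRCA2-proficient GSK3i and siβ-catenin group (1.67 each, adjusted p = 0.000142 and 0.0421). Under GSK3i the same difference was -0.73 ± 0.50 (adjusted p = 1.0), and 0.15 ± 0.28 without the 2 libraries. In that contrast 0.0% of genes were called, with 339 genes at an unadjusted p under 0.05 and none called by edgeR.

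**Figure D2:**
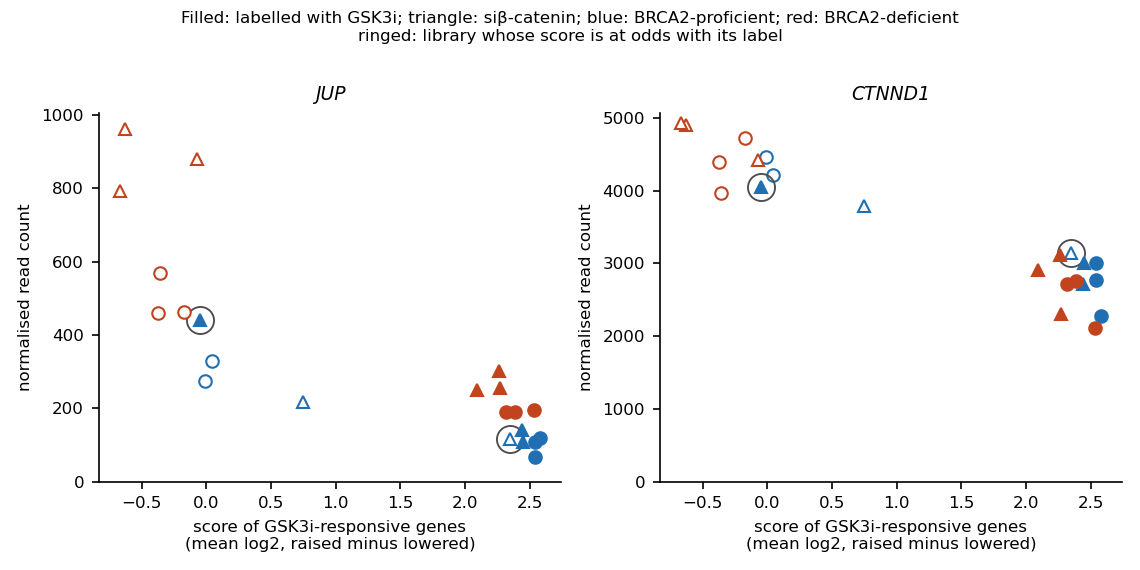
Normalised read counts of JUP and CTNND1 (vertical axes, from 0) against the score of GSK3i-responsive genes (horizontal axes, log2), 1 point per library, filled where the label says GSK3i, triangles where it says siβ-catenin, blue for BRCA2-proficient and red for BRCA2-deficient. The 2 ringed libraries, at scores of 2.35 and -0.05, lie among libraries of the other GSK3i label in score and in JUP, and at 3147 and 4048 normalised counts of CTNND1.

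JUP had larger called changes with GSK3i than with siβ-catenin. It fell in 3 of the 4 settings: by 1.63 ± 0.26 on the log2 scale in BRCA2-proficient cells with control siRNA (adjusted p = 1.44e-08) and by 1.37 ± 0.18 with control siRNA in BRCA2-deficient cells (adjusted p = 6.96e-12). With siβ-catenin in BRCA2-deficient cells it dropped by 1.69 ± 0.17 (adjusted p = 2e-21). In linear terms JUP dropped to 0.323, 0.386 and 0.309 of its level, and in each of the 3 comparisons no GSK3i library reached the lowest library without it. These comparisons called 26.1%, 25.4% and 20.1% of the genes tested, so a called gene was common there, and JUP and CTNND1 were the 2 called members in each. CTNNB1 itself was at 0.829 and 0.75 of its untreated RNA level with GSK3i in the BRCA2-proficient and BRCA2-deficient control cells.

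The remaining setting, GSK3i in BRCA2-proficient cells with siβ-catenin, contrasts the 2 groups that hold the libraries at odds with their labels. There 9 of 17010 genes were called (0.0529%), and none of the 5 members was, with none at an unadjusted p under 0.05 and none called by edgeR. JUP had a log2 change of 0.47 ± 0.58 (adjusted p = 1), and without the 2 libraries, in the model of all groups, of -0.80 ± 0.27 (adjusted p = 0.0603). The mean over the 4 settings was -1.06 ± 0.19 (adjusted p = 1.77e-07; 21.0% of genes called, 7.3% higher and 13.7% lower), -1.37 ± 0.10 without the 2 libraries and -1.52 ± 0.11 in the BRCA2-deficient libraries alone. A difference in the GSK3i response between BRCA2 backgrounds with control siRNA was not detected (0.24 ± 0.53, 95% interval -0.79 to 1.28, adjusted p = 1.0; 0.00543% of genes called).

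JUP was also higher in BRCA2-deficient than in BRCA2-proficient cells in 3 of the 4 settings. The log2 difference was 0.69 ± 0.21 untreated (adjusted p = 0.0168; 6.91% of genes called), 0.96 ± 0.25 with GSK3i (adjusted p = 0.00339; 6.81% called), 2.37 ± 0.27 with siβ-catenin (adjusted p = 1.5e-16; 27.4% called) and 0.23 ± 0.41 with both (adjusted p = 0.838; 7.74% called). In the first 3 the groups did not overlap, which groups of this size can also show without a change. JUP was the only called member in those 3, and none was called in the last, where no member had an unadjusted p under 0.05 and edgeR called no member (3213 and 483 of all genes). Without the 2 libraries, in the model of all groups, the last 2 differences were 2.01 ± 0.24 and 1.12 ± 0.20 (adjusted p = 4.31e-14 and 2.53e-06). The untreated difference was not called in edgeR (adjusted p = 0.0946) or without any of 4 of the 5 libraries (0.56 to 0.83 over all 5, adjusted p up to 0.652 without BRCA2-proficient untreated replicate 2), and the GSK3i one was not called in edgeR (0.97, adjusted p = 0.054). Neither was called in 1 model of all groups with the 2 libraries (adjusted p = 0.272 and 0.0718), and both were without them (0.72, adjusted p = 0.00313, and 0.96, adjusted p = 2.1e-05). With GSK3i and siβ-catenin the difference changed from 0.23 to 1.11 (adjusted p = 0.000148) without the library labelled BRCA2-proficient GSK3i and siβ-catenin replicate 2. As the mean of the 4 settings JUP was 2.11-fold higher in BRCA2-deficient cells (1.08 ± 0.19, adjusted p = 7.79e-08; 1.20 ± 0.10 without the 2 libraries), with 19.1% of genes called, 11.7% higher and 7.42% lower.

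The order of the group means of JUP was BRCA2-deficient siβ-catenin (876.9), BRCA2-deficient untreated (496.4), BRCA2-proficient untreated (300.7), BRCA2-deficient GSK3i and siβ-catenin (269.8), BRCA2-proficient GSK3i and siβ-catenin (229.7), BRCA2-deficient GSK3i (191.6), BRCA2-proficient siβ-catenin (167.1) and BRCA2-proficient GSK3i (98.18). The first 3 were separate from each other in every library, and from the third on each group overlapped the next. Of these means, 229.7 and 167.1 include the libraries at odds with their labels. Without them they were 124.8 (2 libraries) and 217.3 (1 library), and the groups after the fourth then ran from BRCA2-proficient siβ-catenin over BRCA2-deficient GSK3i to BRCA2-proficient GSK3i and siβ-catenin and BRCA2-proficient GSK3i.

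**Figure D3:**
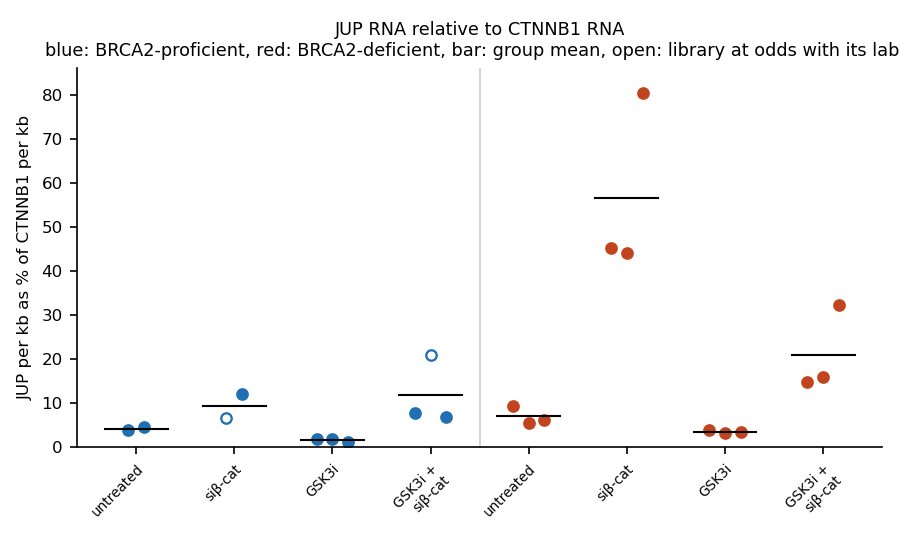
JUP per kb as a percentage of CTNNB1 per kb (vertical axis, linear, from 0) in each library of the 8 groups, with the group mean as a bar and the libraries at odds with their labels as open points. The 3 BRCA2-deficient siβ-catenin libraries, at 44.1% to 80.4%, stand above all others. The siRNA itself lowers CTNNB1, the denominator.

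Set against CTNNB1, JUP remained the rarer RNA in every library. Per kb it was 4.21% of CTNNB1 in BRCA2-proficient untreated cells (3.81% and 4.6%, n = 2) and 7.01% ± 2.07 in BRCA2-deficient untreated cells (SD, n = 3). With GSK3i the ratio was 1.63% ± 0.446 and 3.52% ± 0.342 (SD, n = 3 each). With siβ-catenin it was 6.52% in the library labelled BRCA2-proficient replicate 2, with a mean of 9.26% over both BRCA2-proficient libraries, and 56.6% ± 20.6 in the BRCA2-deficient ones (SD, n = 3), and with both agents 11.9% ± 7.92 and 21.0% ± 9.83 (SD, n = 3 each). The 11.9% was 7.31% without the library labelled BRCA2-proficient GSK3i and siβ-catenin replicate 2. In BRCA2-deficient siβ-catenin cells the pool of the 2 RNAs was the most even of the 8 groups. CTNNB1, the denominator, is the target of the siRNA, so the ratio rises with siβ-catenin even where JUP does not change. The highest ratio, 80.4% in replicate 3, went with the lowest CTNNB1 of that group (1143 normalised counts) and a JUP of 879.6. RNA levels do not give the amounts of the proteins.

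CTNND1 (ENSG00000198561, GRCh37 chromosome 11, 57520715 to 57587018, plus strand), p120-catenin, protects cadherins from internalisation. In BRCA2-deficient cells it was 3967, 4388 and 4717 normalised counts untreated, 2110, 2757 and 2721 with GSK3i, 4898, 4926 and 4415 with siβ-catenin, and 2309, 2907 and 3111 with both. In BRCA2-proficient cells it was 4466 and 4215 untreated and 2279, 2765 and 3004 with GSK3i. The GSK3i libraries lay below those without it in each of these 3 contrasts.

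CTNND1 fell with GSK3i by 0.71 ± 0.15 on the log2 scale in BRCA2-proficient cells with control siRNA (adjusted p = 1.54e-05), by 0.78 ± 0.17 with control siRNA in BRCA2-deficient cells (adjusted p = 5.9e-05) and by 0.77 ± 0.15 with siβ-catenin in BRCA2-deficient cells (adjusted p = 1.34e-05). These 3 calls held without each library in turn. The BRCA2-proficient siβ-catenin libraries had 3147 (the library labelled replicate 2) and 3792, and with GSK3i added 2722, 4048 (the library labelled replicate 2) and 3003, which gave -0.08 ± 0.24 (adjusted p = 1). Leaving out the 2 libraries in the model of all groups gave -0.40 ± 0.21 (adjusted p = 0.325) there, and a mean over the 4 settings of -0.66 ± 0.08, against -0.59 ± 0.09 with them (adjusted p = 2.09e-14 and 9.27e-10). With siβ-catenin the mean log2 change of CTNND1 over the 4 settings was 0.05 ± 0.09 (95% interval -0.12 to 0.23, adjusted p = 0.787; 0.04 ± 0.08 without the 2 libraries), and with BRCA2 status 0.04 ± 0.09 (adjusted p = 0.777; 0.05 ± 0.08 without the 2 libraries). With siβ-catenin, CTNND1 was 0.43 ± 0.16 higher in BRCA2-deficient cells (adjusted p = 0.0325), under the size criterion, and 0.32 ± 0.20 (adjusted p = 0.254) without the 2 libraries. Without BRCA2-proficient siβ-catenin replicate 3 it was 0.57 (adjusted p = 0.0134), a call against the 1 library of that group that is at odds with its label. Another gene of the annotation used here shares 5952 exonic bases with CTNND1 on the same strand and had no row in the count table, so reads of both cannot be told apart. A further gene on that strand shares 1926 exonic bases with CTNND1 and had 19 counts over all libraries.

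CTNNA1 (ENSG00000044115, GRCh37 chromosome 5, 137946656 to 138270723, plus strand), the link to actin, changed little. Its normalised counts ran from 9299 to 9696 in BRCA2-deficient untreated cells, 8204 to 9811 with siβ-catenin, 7495 to 8176 with GSK3i and 6769 to 7475 with both, and from 7462 to 10240 over the BRCA2-proficient libraries. It was called in no comparison. The mean change with GSK3i was -0.23 ± 0.05 (95% interval -0.33 to -0.13, adjusted p = 7.71e-05), past the p threshold and less than the size criterion, and -0.21 ± 0.05 without the 2 libraries. With siβ-catenin it was -0.11 ± 0.05 (95% interval -0.21 to -0.01, adjusted p = 0.171), and -0.16 ± 0.05 (adjusted p = 0.0129) without the 2 libraries. BRCA2 status gave -0.06 ± 0.05 (adjusted p = 0.364; -0.01 without the 2 libraries).

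CDH2 (ENSG00000170558, GRCh37 chromosome 18, 25512843 to 25757910, minus strand), N-cadherin, was the steadiest of the 5 measurable genes. It ran from 1927 to 2504 normalised counts over all 22 libraries, and the group means from 2038 to 2388. It was called in no comparison. The mean change was -0.02 ± 0.05 with siβ-catenin (95% interval -0.12 to 0.08, adjusted p = 0.867), -0.13 ± 0.05 with GSK3i (95% interval -0.23 to -0.03, adjusted p = 0.0229) and 0.06 ± 0.05 with BRCA2 status (95% interval -0.04 to 0.16, adjusted p = 0.341). Each interval lies inside the size criterion of 0.5. The changes were -0.01, -0.16 and 0.05 without the 2 libraries.

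CDH1 (ENSG00000039068, GRCh37 chromosome 16, 68771195 to 68869440, plus strand), E-cadherin, was close to absent. It had 37 counts in all 22 libraries together, from 0 to 7 in one, and it never passed the filter on low counts. In the 7 libraries with a count of 0, up to 3 counts, or 2.27 to 3.59 normalised counts, are allowed by that count, with counting error alone considered. The normalised counts were 0 to 5.903 in the BRCA2-deficient and 0 to 5.007 in the BRCA2-proficient libraries. It was therefore tested in no comparison, and a change with any treatment could not be assessed at this depth.

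**Figure D4:**
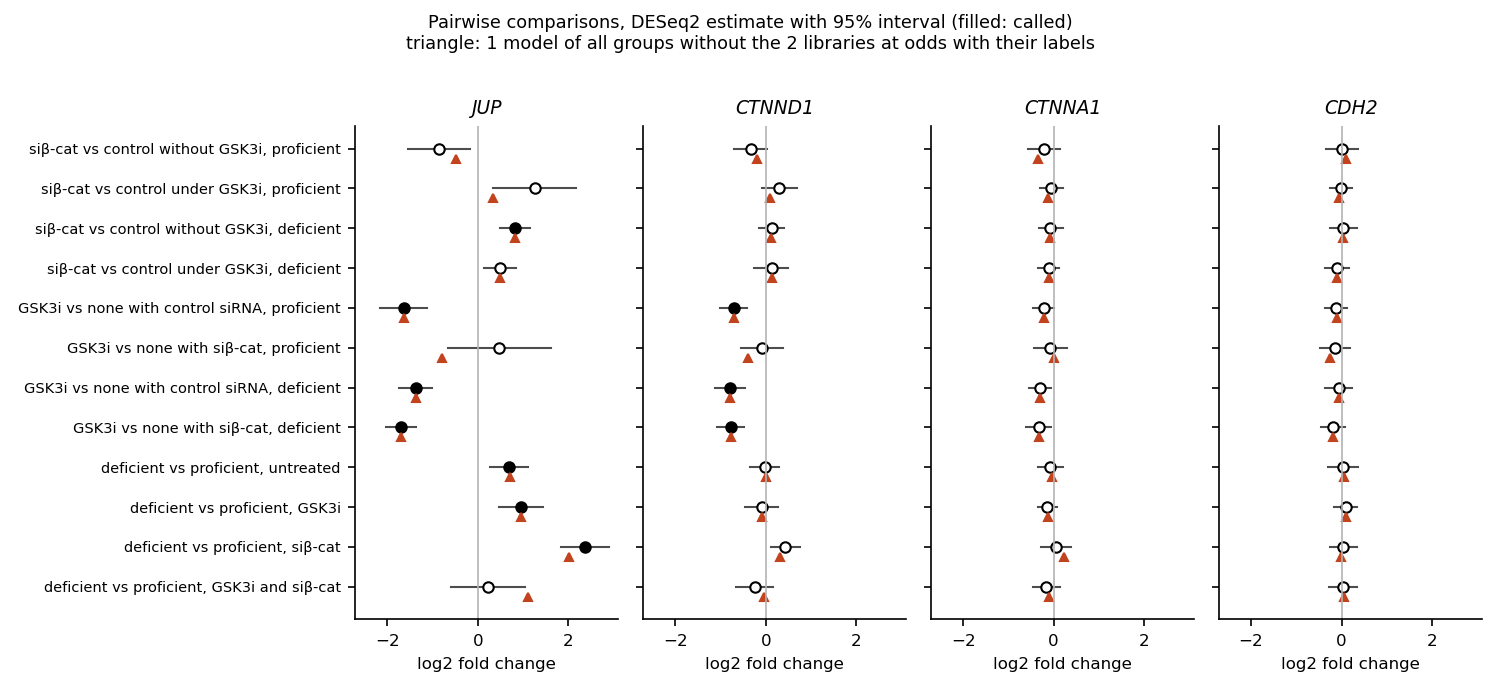
Log2 fold changes (horizontal axes) of JUP, CTNND1, CTNNA1 and CDH2 in the 12 pairwise comparisons (rows), as DESeq2 estimates with 95% intervals, filled where called, with red triangles for the model of all groups without the 2 libraries at odds with their labels. JUP and CTNND1 lie left of 0 with GSK3i in BRCA2-deficient cells, and CTNNA1 and CDH2 stay near 0 throughout.

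Of the 6 interactions, 2 were called for JUP. The JUP response to siβ-catenin differed with and without GSK3i in BRCA2-proficient cells by 2.07 ± 0.56 (adjusted p = 0.00499; 11.7% of genes called), and the JUP response to GSK3i with siβ-catenin differed between BRCA2-deficient and BRCA2-proficient cells by -2.16 ± 0.52 (adjusted p = 0.00784; 3.92% of genes called). Both rest on the 2 groups that hold the libraries at odds with their labels. Without these libraries they were 0.82 ± 0.34 (adjusted p = 0.209) and -0.90 ± 0.32 (adjusted p = 0.316), no calls, and leaving out the library labelled BRCA2-proficient siβ-catenin replicate 2 alone ended both calls (1.70, adjusted p = 0.095, and -1.78, adjusted p = 0.22). No other member was called in an interaction in that model. CTNND1 became a call in the first without BRCA2-proficient GSK3i and siβ-catenin replicate 1 (0.72, adjusted p = 0.0455), and in the second without that library (-0.80, adjusted p = 0.0273) or without BRCA2-proficient siβ-catenin replicate 3 (-0.83, adjusted p = 0.0394). With a replicate block both were called for CTNND1 (0.60, adjusted p = 0.0221, and -0.78, adjusted p = 0.00501). Neither was called for CTNND1 without the 2 libraries, where the second was -0.37 ± 0.26 (adjusted p = 0.956).

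The genes whose log2 levels ran most like each member over the 22 libraries were ranked by Pearson's r among 11902 genes, as a description in which the points share the GSK3i groups. For CTNNB1 they were VAMP4 (r = 0.946), ACTB (0.911) and SRP54 (0.897). For JUP they were ESPNL (0.979), PARP10 (0.966) and NLRX1 (0.965), and for CTNND1 SNX29 (0.979), TRANK1 (0.968) and GARRE1 (0.964). JUP and CTNND1 had an r of 0.738 with each other, while CTNNB1 had -0.173 with JUP and 0.00449 with CTNND1. For CTNNA1 the closest were HNRNPH2 (0.87), ABI1 (0.866) and BTG1 (0.862), and for CDH2 PHLDB2 (0.844), CXorf38 (0.823) and UBR2 (0.82).

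Other genes of cell junctions were read from 8 lists. With siβ-catenin, as the mean of the 4 settings, 3 of the 78 tested genes of these lists were called, where 4.65% of all genes were. CGNL1, a tight junction scaffold, rose by 0.69 ± 0.08 (adjusted p = 2.5e-16). SNAI1, a repressor of CDH1 transcription, rose by 0.50 ± 0.17 (adjusted p = 0.0316), and was not called without the 2 libraries (0.49, adjusted p = 0.0153) since it then missed the size criterion. DSG4, a desmosomal cadherin with a mean of only 4.693 normalised counts, fell by 2.54 ± 0.83 (adjusted p = 0.0246) and had an adjusted p of 0.0551 without the 2 libraries. None of 7 other catenins and armadillo relatives, 3 other classical cadherins, 16 nectins and actin linkers, 14 genes of cadherin and catenin turnover or 11 nuclear partners of β-catenin that could be tested was called as this mean. In single settings some were. In BRCA2-deficient cells without GSK3i, where 2.03% of genes were called, the p120 relative ARVCF was called higher (0.59 ± 0.18, adjusted p = 0.0394). That call lies near both thresholds, in a comparison where edgeR called 0 of 17324 genes. Under GSK3i, where 5.1% and 5.52% of genes were called in BRCA2-proficient and BRCA2-deficient cells, 4 of 12 tight junction genes were called in each, 3 higher and 1 lower. TJP3 rose by 2.68 ± 0.70 and 1.45 ± 0.30, CGNL1 by 0.97 ± 0.19 and 0.97 ± 0.16, and CXADR changed by -0.79 ± 0.20 and -0.74 ± 0.17. NECTIN2, a cell adhesion receptor, rose by 0.55 ± 0.18 and 0.58 ± 0.14, and the desmosomal PKP3 by 0.83 ± 0.23 and 0.59 ± 0.18. Among the 16 linkers 1 was also lower in BRCA2-deficient cells, and 1 of 11 nuclear partners was lower in each background. Of the 14 turnover genes 1 was higher in each background and 1 lower in BRCA2-proficient cells. The BRCA2-proficient values include the library labelled GSK3i and siβ-catenin replicate 2. The median log2 changes of the lists lay between -0.05 and 0.32, beside 0.00 over all genes.

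With GSK3i, 7 of the 78 list genes were higher and 9 lower, where 7.3% and 13.7% of all genes were, so the lists as a whole were near the share over all genes. Tight junction genes moved in both directions, with 3 of 13 higher and 4 lower. TJP3, a scaffold protein of that junction, changed by -1.73 ± 0.32 on the log2 scale (adjusted p = 8.53e-07), and CXADR and CGN rose by 0.66 ± 0.10 and 0.60 ± 0.09 (adjusted p = 6.64e-09 and 5.58e-09). Further called genes of these lists that rank lower or have few counts were chosen after their values were seen. Among the tight junction genes CLDN6 rose by 0.87 ± 0.24, and CLDN1 and MARVELD3 changed by -0.51 ± 0.09 and -0.77 ± 0.33. Without the 2 libraries CLDN1 was at -0.47, under the size criterion. Among 16 nectins and actin linkers none was higher and 2 were lower, VCL, the vinculin that binds α-catenin under tension (-0.56 ± 0.10, adjusted p = 3.91e-07), and PLEKHA7 (-0.56 ± 0.17, adjusted p = 0.00396). Of the 14 turnover genes 2 were lower, the phosphatase gene PTPRJ (-0.74 ± 0.15) and RAPGEF2 (-0.52 ± 0.14). Of the 11 nuclear partners TBL1X was lower (-1.02 ± 0.15, adjusted p = 1.28e-09) and PYGO1 higher (0.60 ± 0.14, adjusted p = 0.00012). One of 3 other classical cadherins was higher, CDH24 (0.58 ± 0.11, adjusted p = 1.12e-06), and of 7 desmosomal genes and 7 repressors of CDH1 transcription 1 each was higher, DSG4 at its few counts (4.05 ± 0.83, adjusted p = 8.72e-06) and SNAI2 (0.88 ± 0.17, adjusted p = 2.04e-06). None of the 7 other catenins and relatives was called. The list medians ran from -0.36 to 0.26, beside 0.00 over all genes.

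Between BRCA2 backgrounds 9 of the 78 list genes were higher and 10 lower, beside 11.7% and 7.42% of all genes. The catenin relative ARVCF, a p120-family gene, was higher in BRCA2-deficient cells (0.96 ± 0.08, adjusted p = 1.71e-30) and ARMC8 lower (-0.55 ± 0.08, adjusted p = 4.58e-12), 2 of 7 tested. The desmosomal plakophilin gene PKP3 was higher (0.65 ± 0.11, adjusted p = 4.81e-08), 1 of 7. Tight junction genes again went both ways, with 3 higher and 2 lower of 13, from TJP3 (1.38 ± 0.32), CLDN4 (0.79 ± 0.16) and CLDN1 (0.76 ± 0.09) to OCLN (-0.88 ± 0.11) and CXADR (-0.57 ± 0.10). NECTIN2 (0.68 ± 0.07) and LIMA1 (0.53 ± 0.07) were higher and LMO7 (-0.69 ± 0.10) lower among 16 linkers. LIMA1 was at 0.47 without the 2 libraries, under the size criterion. Of the 14 turnover genes 3 were lower, PTPRJ (-0.81 ± 0.15), FER (-0.70 ± 0.14) and ARHGAP32 (-0.55 ± 0.13; -0.50 without the 2 libraries), and of the 11 nuclear partners TBL1X (-0.82 ± 0.15) and TBL1XR1 (-0.57 ± 0.06) were lower. ZEB1, which represses CDH1, was lower (-0.53 ± 0.15, adjusted p = 0.00151), while another repressor, SNAI1, was higher (0.53 ± 0.17, adjusted p = 0.00624). Of 3 other classical cadherins CDH3, P-cadherin, was higher at a mean of 14.74 normalised counts (1.61 ± 0.31, adjusted p = 1.4e-06). CDH1 itself was not measurable in either background. The list medians ran from -0.29 to 0.41, beside 0.02 over all genes.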

How the data were processed

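Per the study's methods and the submitters' processing notes, the authors sequenced poly(A) RNA with a stranded kit as paired reads, aligned them to GRCh37 with HISAT2 2.0.4, removed duplicates with Picard 1.9.2 and SAMtools 1.4, and counted uniquely mapped reads per Ensembl gene with featureCounts 1.5.0. These versions are those of the submitters' processing notes, and the paper's reporting summary lists other versions of HISAT2, Picard and featureCounts. The deposited values are raw counts. The annotation release and strand setting are not given in the sources used here, so reads of genes overlapping on opposite strands may be shared. Symbols from a GENCODE annotation lifted to GRCh37 named 36479 of 37908 genes.

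DESeq2 1.42.0 (R 4.3.3) was run on the counts with Wald tests, median-of-ratios scaling and no shrinkage. Each pair of groups was fitted alone, leaving out genes under 10 counts in more than 3 libraries. Means over 4 settings and interactions came from 1 model of the 22 libraries, for genes with at least 10 counts in 3 libraries. p-values were adjusted over all genes tested (Benjamini-Hochberg). List genes were named when called with siβ-catenin, and otherwise as the 2 largest changes per list and direction with a mean of at least 100 normalised counts; 1 gene so chosen is not reported here. Likeness used log2(normalised count + 1). Alternatives were edgeR 4.0.16 (quasi-likelihood), TMM scaling, no low-count filter, 1 model of all groups, a replicate block, and each library left out. The fits without the 2 libraries and of BRCA2-deficient libraries alone were added after seeing the data. The scripts were tested on simulated data.

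The members and lists were chosen with earlier results of these data known. Same-numbered libraries were checked for pairing: of 7 comparisons with 3 pairs, 4, all within BRCA2-deficient cells, had every correlation of deviations from the group means over 0.1, and the correlations ran from -0.34 to 0.67 over all comparisons. Intervals for a count of 0 cover counting error only.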

Additional observations from a re-analysis of the deposited data

Results flagged for a closer look

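For JUP, 2 responses differed between settings by a test of the difference itself. The response to siβ-catenin was 2.07 ± 0.56 higher on the log2 scale under GSK3i than without it in BRCA2-proficient cells (adjusted p = 0.00499, DESeq2), and the response to GSK3i with siβ-catenin was -2.16 ± 0.52 in BRCA2-deficient relative to BRCA2-proficient cells (adjusted p = 0.00784). Both rest on the BRCA2-proficient siβ-catenin groups, where the library labelled siβ-catenin replicate 2 had 116.9 normalised counts of JUP and a GSK3i score of 2.35, and the library labelled GSK3i and siβ-catenin replicate 2 had 439.4 and -0.05. Without these libraries the differences were 0.82 ± 0.34 (adjusted p = 0.209) and -0.90 ± 0.32 (adjusted p = 0.316). Why these libraries stand apart was not tested.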

How the results depend on the processing

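Over the 5 testable genes and all comparisons, 1883 of 1920 values under alternative settings kept the call, called or not, 17 lost it and 20 gained it. None of the called ones reversed, and 70 uncalled values changed sign. For JUP 355 of 384 values kept the call, and it accounted for 16 of the losses and 13 of the gains. CTNNA1 and CDH2 kept theirs under every setting run. The causes of the changes below were not tested. Except where a count over all genes is stated, the share of all genes called in these refits is not given here. The counts of called members below therefore cannot be set against such a share.

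The rise of JUP with siβ-catenin in BRCA2-deficient cells without GSK3i lost its call in edgeR (0.83) and in 1 model of all groups (0.82), where 0 and 1 members were called instead of 2. Over all genes, edgeR called 0 of 17324 in that comparison. In BRCA2-proficient cells under GSK3i, JUP was called in 1 model of all groups (1.23, adjusted p = 0.0122; 2 members called). Between BRCA2 backgrounds, edgeR and 1 model of all groups each called 0 members untreated and 0 under GSK3i, instead of 1, and with GSK3i and siβ-catenin the model of all groups without the 2 libraries called 1 instead of 0. Over all genes, edgeR called 326 of 17157 between the untreated backgrounds and 645 of 16336 between those with GSK3i. In the interaction of GSK3i and BRCA2 status with siβ-catenin, edgeR called 2 of 18409 genes. In the BRCA2-deficient libraries alone the mean siβ-catenin change of JUP was 0.66, with 2 members called instead of 1. Without the 2 libraries the interactions called 0 members (siβ-catenin with GSK3i, BRCA2-proficient), 1 (siβ-catenin with BRCA2 status, without GSK3i) and 0 (GSK3i with BRCA2 status, siβ-catenin), and edgeR called 0 in the last.

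Leaving out each library in turn, the siβ-catenin change of JUP ran from -1.37 to -0.48 and from 0.36 to 1.6 in BRCA2-proficient cells without and under GSK3i, with 1 to 2 members called in each, and from 0.2 to 0.52 as the mean, with 1 to 2 called. Members called ran from 0 to 1 between untreated BRCA2 backgrounds, from 1 to 2 with siβ-catenin and from 0 to 1 with GSK3i and siβ-catenin. In the 3 interactions above they ran from 0 to 2, from 0 to 1 and from 0 to 2.

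The replicate block changed no member's call in the 4 BRCA2-deficient comparisons where every correlation of same-numbered libraries was over 0.1. For siβ-catenin in BRCA2-proficient cells under GSK3i those correlations ran from 0.099 to 0.21. There the block gave JUP a change of 1.02 (adjusted p = 0.0461, 2 members called). Between untreated BRCA2 backgrounds 0 members were called with the block. In the interaction of siβ-catenin and GSK3i in BRCA2-proficient cells 2 members were called with it. The same number was called in the interaction of GSK3i and BRCA2 status with siβ-catenin. CDH1, with at most 7 counts in a library, is limited by depth.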
